A study of Drosophila melanogaster with 9 samples.

Results

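The cytochrome P450 genes of Drosophila were followed across 9 RNA-seq libraries of Kc167 cells, an embryonic fly line that resembles blood cells. The members were all rows of the deposited matrix whose symbol starts with Cyp and a digit, which gave 86 of 14797 genes. One of these, Cyp1, is a cyclophilin (a peptidyl-prolyl isomerase) with no relation to P450 enzymes. It was left out of every count, which leaves 85 P450 genes. P450 genes with other symbols, such as phm, dib, sad, shd, spo and spok, are outside this rule and outside these counts. The libraries fall into ph+E(z) RNAi, ph+E(z)+CtBP RNAi and control RNAi, with 3 in each group. Cells of every group, control included, received 15 µg of double-stranded RNA for a fixed number of cells and were collected on day 7. Polyhomeotic (ph) and E(z) belong to the Polycomb repressive complexes, and CtBP is a transcriptional corepressor. All values come from 1 cell line, the sources used here do not give the target of the control RNA, and the labels do not say whether replicates were separate cultures. Each p therefore measures the spread between these libraries, which may be technical.

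P450 enzymes are heme-containing oxygenases that insert an oxygen atom into small molecules, using electrons from the reductase Cpr at the endoplasmic reticulum or from ferredoxin in mitochondria. In insects, the CYP3 clan holds the Cyp6, Cyp9 and Cyp28 genes, many of which act on plant toxins and insecticides. The CYP4 clan includes fatty acid hydroxylases, while the CYP2 and mitochondrial clans hold enzymes of the molting hormone ecdysone as well as other enzymes. Many copies lie side by side as products of tandem duplication, and in the fly the main sites of P450 detoxification are the gut, the Malpighian tubule and the fat body.

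The deposited unit is FPKM, fragments per kilobase of transcript scaled to mapped fragments, so levels can be compared between genes per length. Read numbers are unknown. E(z) lay at 8.29 to 12.1 FPKM in the 6 libraries treated against it and at 31.2 to 43.4 FPKM in control libraries. CtBP lay at 41.8 to 65.8 FPKM where it was targeted and at 189 to 221 FPKM in the other 6 libraries. The library labelled control replicate 1 went against its label for ph-p, at 4.64 FPKM, against 7.15 to 10.3 FPKM in the 6 knockdown libraries and 18.1 and 18.9 FPKM in the other control libraries. Its share of FPKM in ribosomal protein genes was 39.6%, compared with 26.4% to 30.8% elsewhere, so counts of called genes are also given without it. All 11 hemocyte markers passed the filter, and their summed level was 1360 to 1599 FPKM with ph+E(z) RNAi, 557 to 650 FPKM with ph+E(z)+CtBP RNAi and 764 to 1009 FPKM in control. Of the marker lists for other tissues, 1 of 10 fat body genes, 1 of 7 midgut genes, 4 of 6 Malpighian tubule genes, 1 of 6 oenocyte genes and 2 of 6 ring gland genes passed it. Lsp1alpha and Lsp1gamma of the fat body, alphaTry and betaTry of the midgut, and dib and spok of the ring gland were listed at 0 in every library.

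Kc cells expressed 54 of the 85 P450 genes, taking as expressed a value of at least 0.5 FPKM in 3 or more libraries. This is 63.5%, against 59.8% of all genes in the matrix. Of the 54, 18 had a mean over the 9 libraries of at least 10 FPKM, 26 of 1 to 10 FPKM and 10 under 1 FPKM. In 43 of them every library reached 0.5 FPKM. Among genes with a Cyp symbol, the CYP3 clan contributed 31 of its 40, the CYP4 clan 14 of 32, the mitochondrial clan 7 of 9 and the CYP2 clan 2 of 4. Of the P450 genes named above with other symbols, spo passed the filter, and phm, dib, sad, shd and spok did not. By family, 20 of 25 Cyp6 genes, 13 of 22 Cyp4 genes and 6 of 7 Cyp12 genes were expressed, while all 6 Cyp313 genes fell below the filter. Chromosome arm 2R held 31 expressed genes of 35, against 8 of 14 on 2L, 3 of 6 on 3L, 8 of 16 on 3R and 4 of 14 on X.

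Cyp6a8 had the highest mean over all libraries, a lead that came from the knockdown libraries. Cyp6a8, whose product hydroxylates lauric acid in vitro (FBgn0013772, chr2R:14887171-14889010 in BDGP6, the dm6 assembly), averaged 192 FPKM over the 9 libraries. Its group mean was 5.52 times that of the next P450 gene with ph+E(z) RNAi, 3.45 times with ph+E(z)+CtBP RNAi and 1.08 times in control. In control replicate 3 Cyp6d4 was the highest P450 gene. The others of the 6 highest were Cyp6d4 at 54.0, Cyp6a23 at 46.5, Cyp6a2 at 40.1, Cyp9f2 at 38.8 and Cyp4e2 at 32.5 FPKM. Cyp6a2 is known from insecticide-resistant strains. In single libraries, Cyp6d4 stayed within 51.0 to 59.9 FPKM with ph+E(z) RNAi, 52.8 to 61.0 FPKM with ph+E(z)+CtBP RNAi and 50.1 to 53.0 FPKM in control, and the 3 groups overlapped. Cyp6a2 measured 35.0, 26.4 and 25.7 FPKM in ph+E(z) replicates 1 to 3, then 61.6, 58.2 and 40.3 FPKM with ph+E(z)+CtBP RNAi and 50.9, 31.5 and 31.4 FPKM in control. Cyp9f2 measured 45.2, 44.6 and 41.2 FPKM with ph+E(z) RNAi, 33.2, 37.1 and 32.7 FPKM with ph+E(z)+CtBP RNAi and 45.7, 36.0 and 33.9 FPKM in control. In both genes the library labelled control replicate 1 was the highest of its group. Cyp4e2 was the reverse, at 38.9, 35.6 and 37.4 FPKM, then 29.5, 28.3 and 31.4 FPKM, and 17.8, 35.1 and 38.3 FPKM for the same groups in the same order. There control replicate 1 was the lowest of all 9 libraries.

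**Figure D1:**
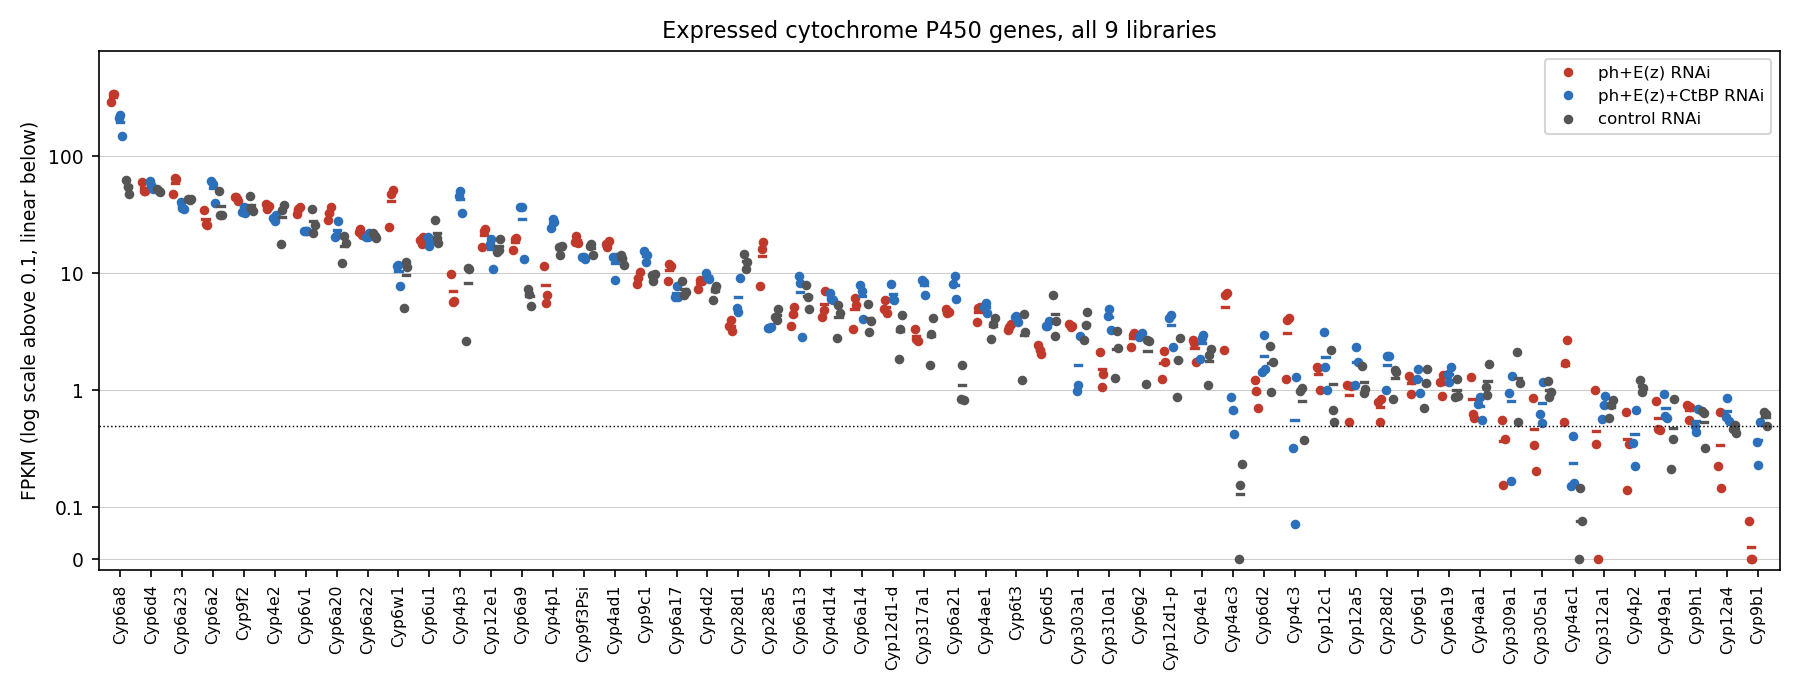
Level of the 54 expressed P450 genes in each library. Points are libraries and short bars are means of 3 libraries, in FPKM on an axis that is logarithmic above 0.1 and linear below; the dotted line marks 0.5 FPKM. Genes run from the highest mean (Cyp6a8, 192 FPKM) to the lowest (Cyp9b1), and the Cyp6a8 groups are clearly separated.

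The 31 genes below the filter included P450 genes with known tissue roles. Cyp18a1, which inactivates ecdysteroids, lay between 0.0427 and 0.185 FPKM. Cyp4g1, needed for cuticular hydrocarbons in oenocytes, was at 0.0525 FPKM or less. Cyp301a1, linked to cuticle formation, reached 0.521 FPKM in the library labelled control replicate 1 and 0.371 FPKM or less elsewhere. The genes Cyp4d21, Cyp316a1, Cyp313a5, Cyp313a3 and Cyp6a18, 5 in number, were listed at 0 in all 9 libraries, and 26 were above 0 in at least 1 library. The highest single value among the 31 was 1.39 FPKM for Cyp304a1, again in the library labelled control replicate 1. With 0.5 FPKM in any 1 library as the rule, 57 P450 genes would count as expressed, and with 1 FPKM in 3 libraries, 46 would. Of 4 rows whose symbol ends in Psi, for pseudogene, 1 was expressed. That was Cyp9f3Psi at 13.3 to 21.0 FPKM, which the Ensembl annotation now lists as a protein-coding gene.

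The summed level of the P450 genes was 835, 937 and 954 FPKM in ph+E(z) replicates 1 to 3, then 825, 826 and 673 FPKM with ph+E(z)+CtBP RNAi and 554, 528 and 527 FPKM in control. Every knockdown library lay above every control library. Cyp6a8 made up 34.8% to 36.3% of this sum with ph+E(z) RNAi, 22.0% to 27.2% with ph+E(z)+CtBP RNAi and 9.09% to 11.4% in control. Without Cyp6a8 the sums were 545 to 610 FPKM, 525 to 610 FPKM and 473 to 491 FPKM in the same order of groups. The groups thus remained apart from control, by a smaller margin. In bulk RNA, a change in the level per cell and a change in the share of cells that express a gene cannot be told apart.

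Setting ph+E(z) RNAi against the control libraries addresses how P450 genes differ when Polycomb complexes are depleted. Cyp6a8, Cyp6a21, Cyp6a20, Cyp4ac3, Cyp4ac1, Cyp6w1 and Cyp28a5 rose, and Cyp28d1 and Cyp9b1 fell. That is 9 of 54 tested genes at an adjusted p under 0.05 (limma on log2(FPKM + 0.5), Benjamini-Hochberg over 8853 genes), where 3.92% of all tested genes passed. The 7 that rose compare with 2.58% of all genes called higher, and the 2 that fell with 1.34% called lower. By clan, 5 CYP3 genes rose and 2 fell, 2 CYP4 genes rose, and none of the 7 mitochondrial genes passed in limma. Of these 7, 1 had an unadjusted p under 0.05, as had 1529 of all 8853 genes. The median log2 change of the 54 was 0.18, against 0.00 over all tested genes. The groups did not overlap in 21 of the 54, against 26.7% of all genes. These medians and counts rest on genes that passed the filter. Cyp4ac1 and Cyp4ac3 passed it only through the ph+E(z) libraries and could not have been called lower in them, and Cyp9b1 passed it without any ph+E(z) library. All of them are among the 9 calls.

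Cyp6a8 was at 290, 341 and 344 FPKM with ph+E(z) RNAi, against 63.1, 55.1 and 47.9 FPKM in control. The groups were far apart, and the gene rose by 2.55 ± 0.18 on the log2 scale (SE, adjusted p = 0.000246). It did so from a control level that was already among the highest of the family. Its neighbour Cyp6a21 (FBgn0033981, chr2R:14885264-14886947) was at 4.95, 4.55 and 4.63 FPKM with ph+E(z) RNAi, against 0.840, 1.65 and 0.833 FPKM in control. The 3 treated libraries were close to each other and lay above all control libraries, a rise of 1.73 ± 0.24 (adjusted p = 0.00636). Cyp6a20 (FBgn0033980, chr2R:14882118-14884046), which has been tied to male aggression in flies, was at 28.8, 33.1 and 36.8 FPKM, against 12.2, 20.7 and 18.2 FPKM in control. The groups did not overlap, the control library labelled replicate 1 was the lowest, and the rise was 0.96 ± 0.21 (adjusted p = 0.0479). Cyp6a9, at 15.7, 19.6 and 20.2 FPKM against 7.41, 6.65 and 5.30 FPKM, lay higher in every ph+E(z) library but missed the threshold (log2 difference 1.46 ± 0.37, adjusted p = 0.0707).

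Cyp4ac3, a CYP4 clan gene (FBgn0031695, chr2L:5268498-5270329), was at 2.20, 6.53 and 6.77 FPKM with ph+E(z) RNAi, against 0, 0.155 and 0.235 FPKM in control. It was near the limit of detection in control and rose by 3.05 ± 0.39 (adjusted p = 0.00491). Since it passed the filter only through the ph+E(z) libraries, a fall could not have been called, and its size is not ranked against other genes. Cyp4ac1 (FBgn0031693, chr2L:5264001-5265899) was at 0.539, 1.71 and 2.68 FPKM, against 0, 0.147 and 0.0742 FPKM in control, and rose by 1.77 ± 0.39 (adjusted p = 0.0465). In both Cyp4ac genes ph+E(z) replicate 1 was the lowest of its group and still above every control library. The middle copy, Cyp4ac2, stayed at 0.216 FPKM or less in all 9 libraries.

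Cyp6w1, reported at raised levels in DDT-resistant flies (FBgn0033065, chr2R:6173684-6176195), was at 24.9, 47.8 and 51.8 FPKM with ph+E(z) RNAi, against 5.07, 12.6 and 11.4 FPKM in control. It rose by 2.07 ± 0.39 (adjusted p = 0.0248), with replicate 1 the lowest library of both groups. Cyp28a5 (FBgn0028940, chr2L:13977302-13979569) was at 7.84, 16.1 and 18.4 FPKM, against 4.23, 3.98 and 4.92 FPKM in control, and rose by 1.50 ± 0.29 (adjusted p = 0.0257). Again ph+E(z) replicate 1 was the lowest treated library and the groups did not overlap. Cyp28d1, linked to nicotine tolerance in flies (FBgn0031689, chr2L:5210460-5212445), was at 3.54, 3.96 and 3.19 FPKM with ph+E(z) RNAi, against 14.6, 11.0 and 12.6 FPKM in control. The gene fell in every treated library, by 1.70 ± 0.25 overall (adjusted p = 0.00842). Cyp9b1 (FBgn0015038, chr2R:7127838-7129808) was at 0.0728, 0 and 0 FPKM, against 0.648, 0.624 and 0.491 FPKM, and fell by 1.05 ± 0.21 (adjusted p = 0.0314). All of its values are close to the filter, and the pseudocount of 0.5 compresses its change.

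The calls of Cyp6a8, Cyp6a21, Cyp4ac3 and Cyp28d1 held without each of the 9 libraries in turn and under every other setting tried. In the main fit the filter allowed Cyp4ac3 no call in the other direction. Cyp6w1 was lost without control replicate 3, ph+E(z) replicate 2 or 3, or ph+E(z)+CtBP replicate 1 (limma adjusted p = 0.0501 to 0.115), against a range of 4.32e-05 to 0.115 over all 20 alternatives, and in a fit of the 2 groups alone (0.0735). Cyp28a5 was lost without control or ph+E(z) replicate 2 or 3, or ph+E(z)+CtBP replicate 1 or 2 (adjusted p = 0.0514 to 0.126), with quantile normalization (0.0515) and in the fit of 2 groups (0.0877). Cyp9b1 was lost without any control library, ph+E(z) replicate 2 or 3, or ph+E(z)+CtBP replicate 1 (adjusted p = 0.0600 to 0.134), and in the fit of 2 groups (0.0591). Of the fits that left out 1 library, Cyp6a20 kept its call in those without control replicate 1 or ph+E(z)+CtBP replicate 3 (adjusted p = 0.0549 to 0.201 in the rest), and Cyp4ac1 in the one without ph+E(z) replicate 1 (0.0643 to 0.190). Cyp6a20 was also lost with a pseudocount of 0.1, no filter, median-of-ratios scaling, no mean-variance trend or the fit of 2 groups (0.0503 to 0.104). Cyp4ac1 was also lost with a pseudocount of 1, no filter, quantile normalization or the fit of 2 groups (0.0529 to 0.118). The 9 calls became 5 without control replicate 2 and 4 without control replicate 3, ph+E(z) replicate 2 or 3, or ph+E(z)+CtBP replicate 1. Without the library labelled control replicate 1, 8 P450 genes passed, where 602 of all 8853 genes did. Of these, 7 were among the 9, Cyp4ac1 and Cyp9b1 were lost, and Cyp6v1 was gained. In the authors' deposited table, 47 P450 genes were tested in this comparison and 10 had a q-value under 0.05. The share of all genes under that q-value is not given here, so no excess among P450 genes is read. Of the 9 named here, 6 were among those 10, Cyp4ac1 (q = 0.531) and Cyp4ac3 (q = 0.452) were not, and Cyp9b1 was not tested there. The remaining 4 of the authors' deposited table were Cyp6a9 and Cyp4c3 (q = 0.00102 each), Cyp4p1 (q = 0.0181) and Cyp309a1 (q = 0.0425).

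Adding CtBP to the pair of Polycomb targets, and comparing with the ph+E(z) libraries, addresses what depletion of the corepressor contributes. Cyp4p1, Cyp4p3 and Cyp317a1 rose, and Cyp28a5, Cyp4ac3, Cyp6w1 and Cyp6a23 fell. The 7 calls of 54 compare with 3.72% of all tested genes, with 1.94% called higher and 1.77% called lower. Cyp4ac3, 1 of the 7, passed the filter only through the ph+E(z) libraries, so the filter favoured its fall here. The median log2 change of the 54 was 0.18, against -0.01 over all tested genes, and the groups did not overlap in 29 of the 54, against 31.2% of all genes. This comparison shares the ph+E(z) libraries with the first, so a gene that is high in those libraries for any reason is pushed up in the first comparison and down in this one.

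Cyp4p1 (FBgn0015037, chr2R:9240041-9242139) was at 24.2, 29.3 and 27.2 FPKM with ph+E(z)+CtBP RNAi, against 11.5, 5.61 and 6.58 FPKM with ph+E(z) RNAi. The groups were well apart, and it rose by 1.76 ± 0.24 (adjusted p = 0.00733). Its neighbour Cyp4p3 (FBgn0033397, chr2R:9242320-9244410) was at 46.2, 50.6 and 32.9 FPKM, against 9.84, 5.66 and 5.81 FPKM, and rose by 2.54 ± 0.49 (adjusted p = 0.0280). In the ph+E(z) group replicate 1 was the highest for both genes. Cyp317a1 (FBgn0033982, chr2R:14898312-14903095) was at 8.72, 8.46 and 6.52 FPKM, against 3.33, 2.73 and 2.66 FPKM, and rose by 1.30 ± 0.28 (adjusted p = 0.0443). It shares 1331 of its 4078 exonic bases with the gene Kank, and since strand is not stated, reads from the overlap could belong to either gene.

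Cyp28a5 lay at 3.41, 3.39 and 3.45 FPKM with ph+E(z)+CtBP RNAi, against the 7.84 to 18.4 FPKM of the ph+E(z) libraries, and fell by 1.82 ± 0.29 (adjusted p = 0.0123). Cyp4ac3 was at 0.885, 0.683 and 0.425 FPKM, against 2.20 to 6.77 FPKM, and fell by 2.17 ± 0.39 (adjusted p = 0.0222). Cyp6w1 was at 11.6, 11.8 and 7.85 FPKM, against 24.9 to 51.8 FPKM, and fell by 1.90 ± 0.39 (adjusted p = 0.0348). These 3 genes had been called higher with ph+E(z) RNAi, and against control their differences with all 3 targets were -0.31 ± 0.29, 0.88 ± 0.39 and 0.17 ± 0.39, none past the threshold. Cyp6a23 (FBgn0033978, chr2R:14875829-14877654) fell by less, 0.63 ± 0.14 (adjusted p = 0.0487), at 41.1, 36.1 and 35.7 FPKM against 47.3, 64.9 and 64.4 FPKM. The abundant Cyp6a8, at 215, 225 and 148 FPKM against 290 to 344 FPKM, was lower in each library but not called (-0.75 ± 0.18, adjusted p = 0.0641).

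Hemocyte markers moved in the same libraries. With CtBP also targeted, 7 of the 11 fell, where 1.77% of all tested genes were called lower. The part of these markers in the P450 differences was not tested. Without control replicate 1, 9 fell, with Hml and eater added, and without ph+E(z) replicate 2 or ph+E(z)+CtBP replicate 1 or 2, 4 fell. The count over all genes without control replicate 1 is given below with the P450 calls. With ph+E(z) RNAi against control, 2 of the 11 rose (He and nimC1) and Cg25C fell. Of all tested genes, 2.58% were called higher and 1.34% lower in that comparison. There eater also rose without control replicate 1 (adjusted p = 0.0220), and none of the 11 passed in limma without ph+E(z) replicate 2 or 3. One of these markers is a neighbour of a P450 gene. Cyp28a5 starts 532 bases beyond nimC1, a hemocyte receptor for phagocytosis, and this pair was picked out after its values were seen. nimC1 lay at 7.85, 14.0 and 14.6 FPKM with ph+E(z) RNAi, 1.33, 1.16 and 1.09 FPKM with ph+E(z)+CtBP RNAi and 3.82, 4.21 and 3.90 FPKM in control. nimC1 rose by 1.45 in the first comparison (adjusted p = 0.0138) and fell by 2.86 in the second (adjusted p = 0.00137). The rise missed the threshold when ph+E(z) replicate 2, ph+E(z) replicate 3 or control replicate 3 was left out (0.0549 to 0.0822), and the fall held without each library. In ph+E(z) libraries replicate 1 was the lowest for both genes.

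The call of Cyp4p1 held under every alternative. Cyp28a5 missed the threshold when ph+E(z) replicate 2 or 3 or ph+E(z)+CtBP replicate 1 or 2 was left out (limma adjusted p = 0.0570 to 0.0695), and Cyp4ac3 and Cyp4p3 without ph+E(z) replicate 2 or 3 or any ph+E(z)+CtBP library (0.0635 to 0.106 and 0.0525 to 0.129). Cyp6w1 was lost without those 5 libraries or control replicate 3 (0.0523 to 0.157), Cyp6a23 without those 5 or control replicate 2 or 3 (0.0841 to 0.220), and Cyp317a1 without control replicate 2 or any ph+E(z) or ph+E(z)+CtBP library (0.0635 to 0.178). A pseudocount of 0.1 also lost Cyp4ac3, Cyp6a23 and Cyp317a1 (0.0528 to 0.0586), no filter lost Cyp6w1, Cyp6a23 and Cyp317a1 (0.0511 to 0.0735), and no mean-variance trend lost Cyp6a23 (0.0632). The 7 calls became 1 without ph+E(z) replicate 2 or 3 or ph+E(z)+CtBP replicate 1 or 2. Without ph+E(z)+CtBP replicate 3, 4 genes passed. Of the 7 these held only Cyp4p1 and Cyp28a5, and Cyp303a1 and Cyp6a9 were gained (limma adjusted p = 0.0209 and 0.0346). Without the library labelled control replicate 1, which affects this comparison only through the shared estimate of spread, 17 P450 genes passed, where 1191 of all 8853 genes did. These held all 7 and added Cyp6a8, Cyp6a2, Cyp4e2, Cyp9c1, Cyp6a17, Cyp6v1, Cyp310a1, Cyp9f3Psi, Cyp9f2 and Cyp6d5. In the authors' deposited table, 16 of 45 tested P450 genes had a q-value under 0.05, among them 6 of the 7, Cyp4ac3 being the exception. The others were Cyp6a8 (q = 0.00271), Cyp12d1-p, Cyp28d1, Cyp303a1, Cyp4c3, Cyp6a2, Cyp6a21, Cyp6a9, Cyp6v1 and Cyp9c1. Here too the share of all genes under that q-value is not given, so no excess is read.

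The triple knockdown was also set against the control libraries, which gives the difference made by all 3 targets. Cyp6a8, Cyp6a21, Cyp6a9, Cyp4p3, Cyp317a1 and Cyp9c1 rose, and Cyp28d1 fell, 7 of 54 tested genes where 9.73% of all tested genes passed. The background was 5.58% for higher and 4.15% for lower calls. The median log2 change of the 54 was 0.22, against 0.00 for all tested genes, and the groups did not overlap in 22 of the 54, against 36.3% of all genes. It shares its libraries with the other 2 comparisons and adds no separate evidence to them.

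Cyp6a8 rose by 1.80 ± 0.18 (adjusted p = 0.00106), at 196 ± 41.8 FPKM with ph+E(z)+CtBP RNAi and 55.4 ± 7.62 FPKM in control (SD, n = 3 each). Cyp6a21, at 8.08, 9.55 and 6.07 FPKM against 0.840, 1.65 and 0.833 FPKM, rose by 2.40 ± 0.24 (adjusted p = 0.00106). Cyp6a9 (FBgn0013771, chr2R:14879356-14881372) was at 36.7, 36.9 and 13.3 FPKM, against 7.41, 6.65 and 5.30 FPKM, and rose by 1.96 ± 0.37 (adjusted p = 0.0144). Here ph+E(z)+CtBP replicate 3 lay far below the other treated libraries. For Cyp4p3 the change against control was 2.53 ± 0.49 (adjusted p = 0.0165), with control libraries at 2.64, 11.0 and 11.0 FPKM, and for Cyp317a1 it was 1.35 ± 0.28 (adjusted p = 0.0217), with control libraries at 1.63, 3.01 and 4.17 FPKM. In both, the library labelled control replicate 1 was the lowest. Cyp9c1 (FBgn0015040, chr2R:24631063-24632923) rose by 0.56 ± 0.14 (adjusted p = 0.0455), at 15.6, 12.6 and 14.2 FPKM against 9.73, 8.53 and 9.89 FPKM. Of its 1743 exonic bases, 1711 are shared with an annotated antisense RNA, so its level is uncertain. Cyp28d1, at 5.01, 4.64 and 9.07 FPKM against 14.6, 11.0 and 12.6 FPKM, fell by 1.02 ± 0.25 (adjusted p = 0.0378).

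Cyp6a8 and Cyp6a21 held under every alternative here. Cyp6a9 and Cyp4p3 were lost without ph+E(z)+CtBP replicate 1 or 2 (limma adjusted p = 0.0654 to 0.0657 and 0.0737 to 0.0769), and Cyp317a1 without those libraries or control replicate 2 (0.0505 to 0.0956). Of the fits that left out 1 library, Cyp28d1 kept its call in the one without ph+E(z)+CtBP replicate 3 (0.0505 to 0.148 in the rest), and Cyp9c1 in the one without control replicate 1 (0.0536 to 0.178). The fit of 2 groups lost Cyp6a9, Cyp4p3, Cyp317a1, Cyp28d1 and Cyp9c1 (0.0554 to 0.117). No filter lost Cyp28d1 (0.0608) and Cyp9c1 (0.0720), and quantile normalization lost Cyp9c1 (0.116). The 7 calls became 2 without ph+E(z)+CtBP replicate 1 or 2 and 4 without control replicate 2. Without the library labelled control replicate 1, 10 P450 genes passed, where 1541 of all 8853 genes did. Of these, 6 were among the 7, Cyp28d1 was lost, and Cyp6a2, Cyp303a1, Cyp4e2 and Cyp12d1-d were gained. Across the 3 comparisons, 15 of the 54 expressed genes were called at least once and 39 were not.

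**Figure D2:**
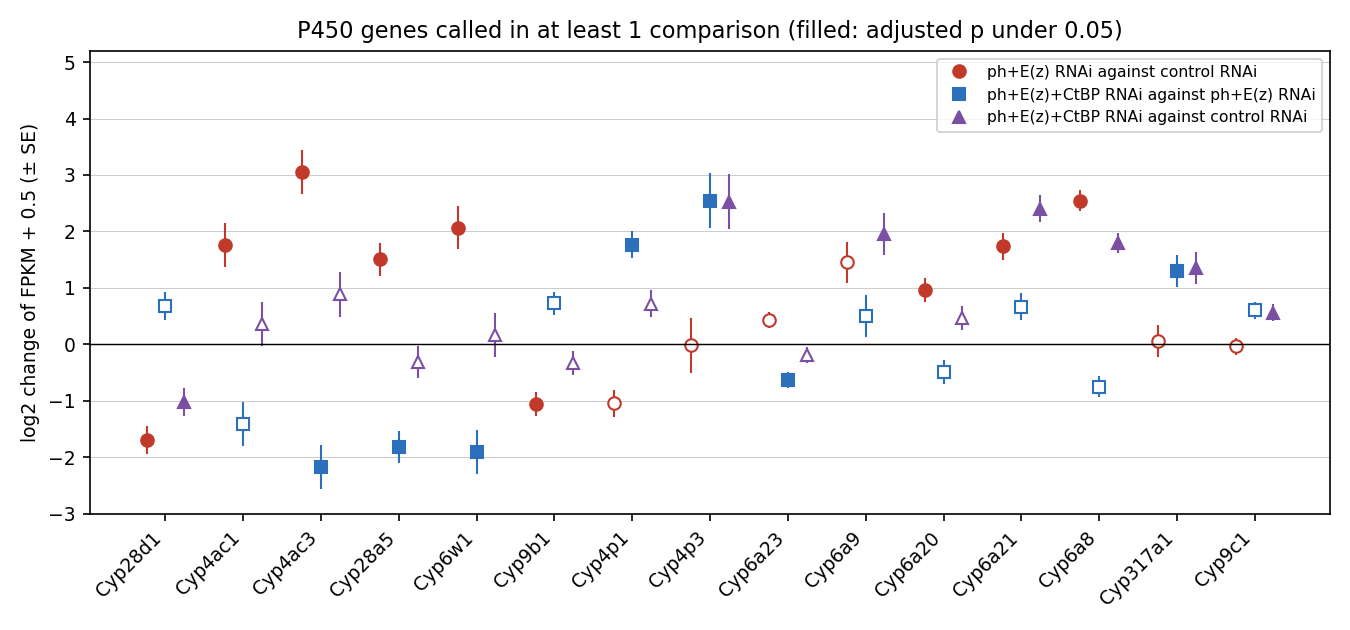
Log2 change of FPKM + 0.5 with its SE for the 15 P450 genes called in at least 1 comparison, in chromosome order. Filled symbols have a limma adjusted p under 0.05. Cyp6a8 and Cyp6a21 are filled in both comparisons against control, while Cyp28a5, Cyp4ac3 and Cyp6w1 are filled above 0 with ph+E(z) RNAi and below 0 when CtBP is also targeted.

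Of the 85 P450 genes, 47 lie in 16 clusters in which each start is at most 20 kb from the next, and 38 stand alone. Expressed genes made up 35 of the 47 and 19 of the 38. All members were expressed in 8 clusters and 0 in 3 clusters, these being Cyp313a5, Cyp313a2 and Cyp313a3 on 3R, Cyp316a1 and Cyp4d8 on 3L, and Cyp311a1 and Cyp318a1 on X. Among expressed genes next to each other there were 22 pairs. For each pair, the per-library difference between the log2 values of the 2 copies was tested, together with all 7032 pairs of adjacent tested genes. A pair that misses the threshold is not shown to change alike.

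The 2 copies of a pair changed in the same direction in 20 of 22 pairs with ph+E(z) RNAi against control, in 16 of 22 with CtBP added, and in 16 of 22 with all 3 targets against control. Among all adjacent pairs the shares were 56.2%, 55.1% and 56.4%. These are counts of signs, most of them on genes that were not called, and pairs of the same cluster share genes. Their median absolute difference in log2 change was 0.36, 0.37 and 0.42 in the 3 comparisons, against 0.33, 0.25 and 0.40 for all adjacent pairs. Both copies were called in 3, 1 and 2 pairs, and 1 copy of a pair in 3, 5 and 5 pairs. These counts include 3 pairs with a copy that passed the filter only through 1 group, Cyp4ac1 and Cyp4ac3 among them, whose shared direction with ph+E(z) RNAi the filter fixed. In the other 19 pairs the same direction was seen in 17, 13 and 14, both copies were called in 2, 1 and 2, and 1 copy in 3, 3 and 5. An unequal change was called in 1, 3 and 2 of the 22 pairs, with a background of 2.23%, 2.01% and 7.84% of all adjacent pairs. In the other 19 pairs it was called in 1, 2 and 1, since Cyp4p2 with Cyp4p1 drops out. At an unadjusted p under 0.05 there were 8, 7 and 7 of the 22. The share of all adjacent pairs at that threshold is not given, so no excess is read from these counts.

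The largest cluster, 9 genes on 2R from Cyp6a22 to Cyp317a1 (chr2R:14871366-14903095), was expressed throughout. With ph+E(z) RNAi against control, 1 of its 8 adjacent pairs was called unequal. At the Cyp6a22 end, Cyp6a22 averaged 22.7 ± 1.39 FPKM with ph+E(z) RNAi, 21.0 ± 1.07 FPKM with ph+E(z)+CtBP RNAi and 21.0 ± 0.948 FPKM in control, and its groups overlapped. Cyp6a17, which affects temperature preference in flies, averaged 10.7 ± 1.77, 6.79 ± 0.904 and 7.32 ± 1.07 FPKM, and Cyp6a19 averaged 1.14 ± 0.228, 1.38 ± 0.204 and 1.01 ± 0.215 FPKM, for the same groups in the same order. With Cyp6a23, these genes had log2 differences of 0.11 to 0.51 between ph+E(z) and control RNAi, and none of the 4 was called. Beyond them, Cyp6a9, Cyp6a20, Cyp6a21 and Cyp6a8 differed by 0.96 to 2.55, with 3 of the 4 called. This division of the cluster follows the values themselves, and the pair across it, Cyp6a19 and Cyp6a9, was not called unequal. The last gene, Cyp317a1, starts 11141 bases from Cyp6a8 and differed by 0.05 ± 0.28, and the gap to Cyp6a8 was called unequal (-2.49 ± 0.35, adjusted p = 0.0146).

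When CtBP was also targeted, none of Cyp6a9, Cyp6a20, Cyp6a21 and Cyp6a8 was called. Among their adjacent pairs, only Cyp6a21 with Cyp6a8 was called unequal. Cyp6a21 and Cyp6a8, which lie 223 bases apart on the same strand, differed by 0.67 ± 0.24 and -0.75 ± 0.18 from ph+E(z) RNAi. Neither change was called alone, but their inequality was (-1.42 ± 0.23, adjusted p = 0.0217). Cyp317a1 and Cyp6a8 also moved apart (2.05 ± 0.35, adjusted p = 0.0258). Against control, Cyp6a20 and Cyp6a21 differed from each other (1.94 ± 0.30, adjusted p = 0.0116), with Cyp6a20 at 0.46 ± 0.21 and Cyp6a21 at 2.40 ± 0.24. Cyp6a19 and Cyp6a9 overlap tail to tail by 397 exonic bases, so their reads may be mixed there. Of the flanking genes, Pcf11 lies 294 bases before Cyp6a22. CG10249, the deposited symbol of Kank, overlaps Cyp317a1 at the far end, so their reads may be mixed. Pcf11 and CG10249 were called neither way with ph+E(z) RNAi (log2 differences 0.12 and -0.80, adjusted p = 0.531 and 0.0960). Neither was called when CtBP was added (0.27 and 0.56, adjusted p = 0.247 and 0.284). With all 3 targets against control Pcf11 rose by 0.39 (adjusted p = 0.0474), while CG10249 differed by -0.24 (adjusted p = 0.477).

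**Figure D3:**
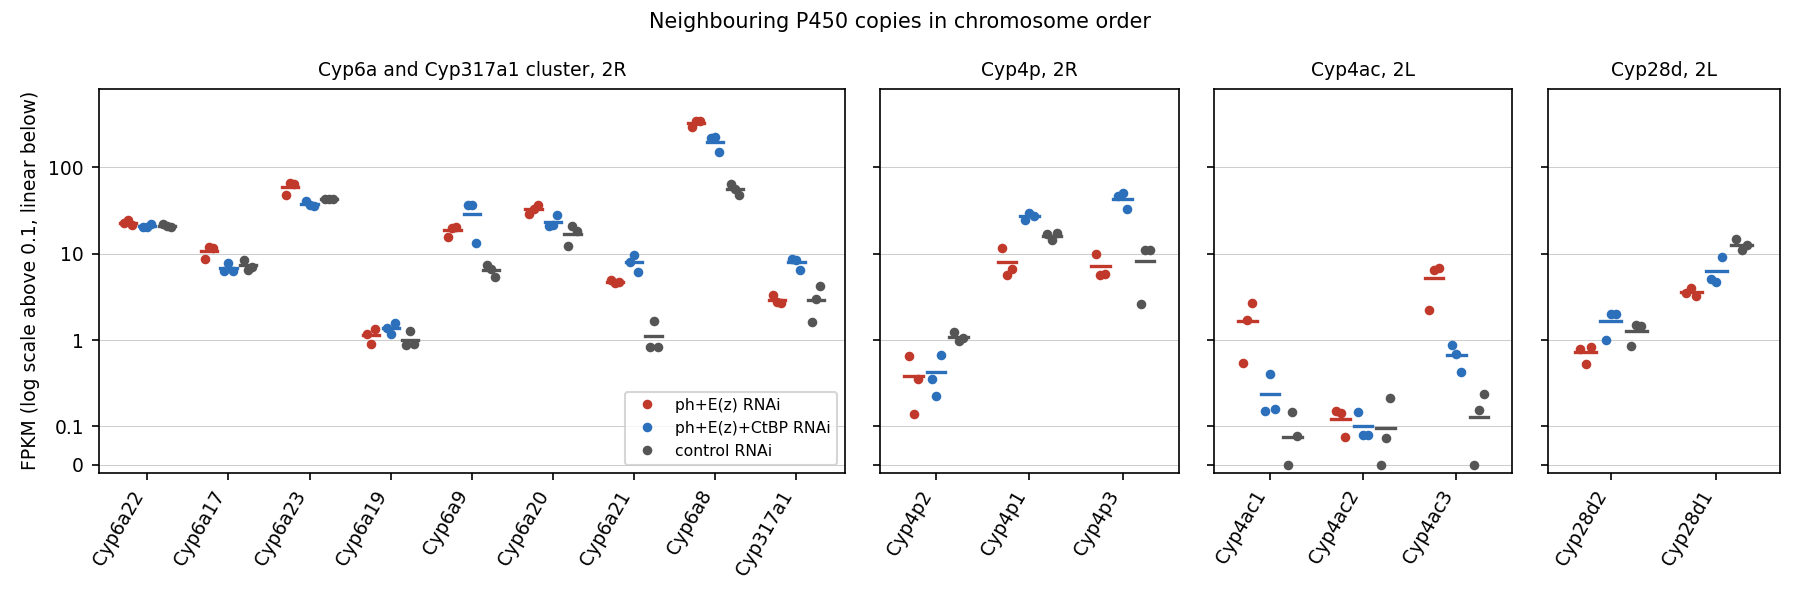
FPKM of neighbouring P450 copies in each library, in chromosome order, for the 9-gene cluster, Cyp4p, Cyp4ac and Cyp28d. Points are libraries, bars are means of 3, and the axis is logarithmic above 0.1 FPKM and linear below. Cyp6a8 stands at 290 to 344 FPKM with ph+E(z) RNAi beside Cyp6a22 at 21.4 to 24.1 FPKM, and Cyp4p1 and Cyp4p3 are high where CtBP is targeted while Cyp4p2 is not.

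In the Cyp4p cluster on 2R, 1 of 2 adjacent pairs was called unequal in each comparison with CtBP RNAi, and neither with ph+E(z) RNAi against control. Cyp4p2, Cyp4p1 and Cyp4p3 follow each other on the same strand with gaps of 209 and 180 bases. Cyp4p2 was at 0.357, 0.227 and 0.679 FPKM with ph+E(z)+CtBP RNAi, 0.651, 0.140 and 0.350 FPKM with ph+E(z) RNAi and 1.22, 0.965 and 1.05 FPKM in control. Cyp4p2 passed the filter only through the control libraries, where it is highest, so its difference from control is given as a value only. Its neighbours both rose when CtBP was added. The Cyp4p1 change exceeded that of Cyp4p2 by 1.69 ± 0.26 when CtBP was added (adjusted p = 0.0181) and by 1.52 ± 0.26 with all 3 targets against control (adjusted p = 0.0159). In the last, Cyp4p2 itself differed from control by -0.80 and Cyp4p1 by 0.72. The filter favoured that fall of Cyp4p2, so the call against control cannot show that the 2 copies changed unequally. Cyp4p1 and Cyp4p3 were not called unequal. With ph+E(z) RNAi against control, Cyp4p1 differed by -1.04 ± 0.24, just short of the threshold (adjusted p = 0.0548), and Cyp4p3 by -0.02 ± 0.49.

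In the Cyp4ac cluster on 2L the outer copies Cyp4ac1 and Cyp4ac3 both passed the filter only through the ph+E(z) libraries, where both rose, so their moving together is no result about neighbours. No inequality was called (difference 1.29 ± 0.31 in favour of Cyp4ac3, adjusted p = 0.0811). Cyp28d2 lies 1114 bases before Cyp28d1 and was lower in expression, at 0.788, 0.533 and 0.839 FPKM with ph+E(z) RNAi, 1.01, 1.98 and 1.98 FPKM with ph+E(z)+CtBP RNAi and 0.843, 1.50 and 1.44 FPKM in control. Its change was -0.52 ± 0.27 where Cyp28d1 fell by 1.70, and the inequality was not called (adjusted p = 0.155). Cyp9b2, the neighbour of Cyp9b1, was at 0.0809 FPKM or less in every library.

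The remaining neighbours held no called gene in any comparison. They were Cyp4ad1, Cyp4e2 and Cyp4e1, then Cyp6a14 and Cyp6a13, the copies Cyp12d1-p and Cyp12d1-d, which respond to caffeine and other foreign compounds in flies, and Cyp6g1, Cyp6g2 and Cyp6t3, of which Cyp6g1 is the DDT resistance gene. Cyp9f3Psi and Cyp9f2, Cyp12a5 and Cyp12a4, and Cyp4d14, Cyp4d2 and Cyp4ae1 complete the set. Their log2 differences with ph+E(z) RNAi against control lay between -0.50 (Cyp6a13) and 0.67 (Cyp12d1-d). Cyp6g1, at 0.935 to 1.33 FPKM with ph+E(z) RNAi, 0.947 to 1.52 FPKM with ph+E(z)+CtBP RNAi and 0.701 to 1.52 FPKM in control, differed by 0.06 ± 0.25. Of these pairs, Cyp12a5 and Cyp12a4 were the closest in that comparison, at -0.27 ± 0.29 and -0.25 ± 0.26. Cyp12a4 averaged 0.342 FPKM with ph+E(z) RNAi, 0.671 FPKM with ph+E(z)+CtBP RNAi and 0.469 FPKM in control. It passed the filter only through the ph+E(z)+CtBP libraries, and the pseudocount compresses its change. No likeness of the 2 copies is therefore read from these values. Cyp12d1-p and Cyp12d1-d are near-identical copies whose reads may be split between them, and Cyp4d14, Cyp4d2 and Cyp4ae1 overlap antisense RNAs over most of their length.

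**Figure D4:**
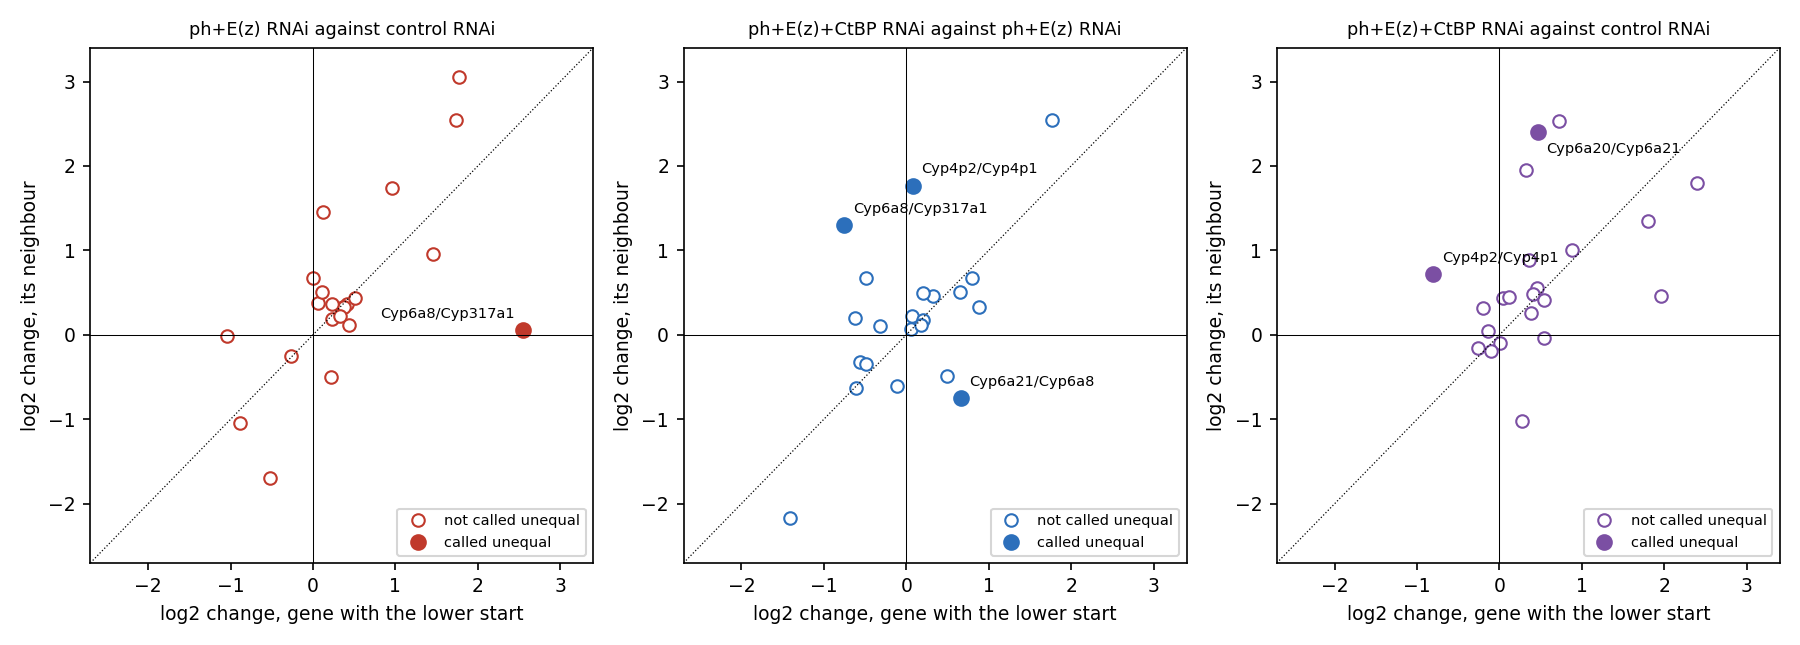
Log2 change of the gene with the lower start (horizontal) against its neighbour (vertical) for the 22 adjacent P450 pairs in each comparison. The dotted line marks equal change, and filled points were called unequal. With ph+E(z) RNAi against control 20 of 22 pairs have the same sign, and Cyp6a8 with Cyp317a1 lies far off the line.

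The called inequalities depended on single libraries. The Cyp6a8 and Cyp317a1 difference with ph+E(z) RNAi missed the threshold when ph+E(z) replicate 2, ph+E(z) replicate 3 or control replicate 2 was left out (limma adjusted p = 0.0504 to 0.0874), and the pair is not formed where starts must lie within 10 kb. With CtBP added, Cyp4p2 and Cyp4p1 missed the threshold without ph+E(z) replicate 2 or 3 or ph+E(z)+CtBP replicate 1 or 2 (0.0707 to 0.0893). Cyp6a21 and Cyp6a8 missed it without those libraries or ph+E(z)+CtBP replicate 3 (0.0585 to 0.122), and Cyp6a8 and Cyp317a1 without those 5 or control replicate 2 (0.0508 to 0.135). With all 3 targets against control, Cyp4p2 and Cyp4p1 missed it without control replicate 2 or ph+E(z)+CtBP replicate 1 or 2 (0.0515 to 0.0685), and Cyp6a20 and Cyp6a21 without either of the last 2 (0.0585 to 0.0639). Without the library labelled control replicate 1 the counts of unequal pairs were 2, 5 and 4 in the 3 comparisons, and without ph+E(z)+CtBP replicate 3 they were 2, 2 and 4.

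Genes that serve P450 enzymes were read from lists outside the family. Of 16 tested electron donors, membrane partners and heme synthesis genes, 1 fell with ph+E(z) RNAi against control, where 1.34% of all tested genes did. The list had a median log2 change of -0.58, against 0.00 over all tested genes. That median includes the library labelled control replicate 1, and the list median without it is not given. The gene that fell (FBgn0010786) encodes hydroxymethylbilane synthase of the heme pathway. It was at 93.9, 87.0 and 83.2 FPKM with ph+E(z) RNAi and 77.0, 77.4 and 76.1 FPKM with ph+E(z)+CtBP RNAi, against 242, 189 and 191 FPKM in control. It fell by 1.22 ± 0.12 with ph+E(z) RNAi (adjusted p = 0.00119) and by 1.42 ± 0.12 with all 3 targets (adjusted p = 0.000495). Alas, the first enzyme of heme synthesis, fell with all 3 targets against control, by 0.93 ± 0.16 (adjusted p = 0.0112), and with ph+E(z) RNAi it differed by -0.56 ± 0.16 (adjusted p = 0.114). Both held in limma without each library. Without control replicate 1, 2 of the 16 fell with ph+E(z) RNAi and 4 with all 3 targets against control, where 2 fell with all libraries. With all libraries and all 3 targets, 4.15% of all tested genes were called lower. Counts over all genes without control replicate 1 are given above with the P450 calls. The reductase Cpr lay between 87.3 and 103 FPKM in all 9 libraries and was called in no comparison with all libraries.

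Of 11 tested factors tied to P450 expression in flies, among them EcR, usp, Hr96, cnc and Keap1, none was called with ph+E(z) RNAi against control in limma. An unadjusted p under 0.05 was found in 2 of them, and in 1529 of all 8853 genes. The fit without the library labelled control replicate 1 called 3, and its count over all genes is given above with the P450 calls. EcR, the ecdysone receptor, was then lower by a log2 difference of -0.81 (limma adjusted p = 0.0168), against -0.40 with all libraries, and Keap1 by -0.77 (adjusted p = 0.0138). Hr78 was higher by 0.32 (adjusted p = 0.0441). Hnf4, a nuclear receptor of lipid metabolism, rose when CtBP was added, by 0.58 ± 0.11 (adjusted p = 0.0280). It was at 31.7, 29.9 and 36.1 FPKM with ph+E(z)+CtBP RNAi, against 20.8, 20.6 and 23.1 FPKM with ph+E(z) RNAi. Of the fits that left out 1 library, this call held in the one without control replicate 1 (0.0548 to 0.145 in the rest). Keap1, the inhibitor of cnc, differed by 0.91 ± 0.20 in the same comparison (adjusted p = 0.0509). Without control replicate 1, EcR (adjusted p = 0.00574), Keap1 (adjusted p = 0.00267) and Hnf4 were called there, 3 of the 11. More genes of the whole table also passed in that fit, as given above with the P450 calls. Of 8 ecdysteroid synthesis genes with other symbols, 3 were tested, and 1 was called in any comparison. That was nvd, a cholesterol desaturase and not a P450, which rose by 0.77 ± 0.17 with all 3 targets against control (adjusted p = 0.0292). The nvd call held without control replicate 1, ph+E(z) replicate 1 or ph+E(z)+CtBP replicate 3 and was lost without each other library (0.0541 to 0.114). The row Cyp1, the cyclophilin, was at 362 to 472 FPKM in the 6 knockdown libraries, against 649, 440 and 435 FPKM in control, and was called in no comparison.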

How the data were processed

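The authors deposited FPKM for 14797 genes in each of 9 libraries, their group means and, for 2 comparisons, a q-value. Per the submitters' processing notes, the tools were TopHat2 2.1.0, Bowtie2 2.2.6, Cufflinks, Cuffdiff and R 3.2.3. No source states strandedness, read numbers or the scaling between libraries, so depth is unknown and precision was judged from the spread between libraries.

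Genes with at least 0.5 FPKM in 3 or more libraries, 8853 in all, entered 1 fit of 3 groups on log2(FPKM + 0.5) in limma 3.58.1 (R 4.3.3), moderated with a mean-variance trend. P values were adjusted by Benjamini-Hochberg over all tested genes, or all adjacent pairs, within each comparison. A call is an adjusted p under 0.05. The pseudocount understates changes of low genes. Both fits were tested on simulated data. Figures were drawn with matplotlib 3.10.9.

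Positions come from the Ensembl BDGP6 annotation, by FlyBase identifier for 85 rows and by symbol for Cyp6a21. Clans follow family numbers. Pairs were tested on the per-library log2 difference.

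The members, the 9 gene lists and the tests were chosen with earlier results of these data known. The rule named called members, the 6 highest and neighbouring expressed copies. Uncalled neighbours are given by group means, ranges or log2 differences where the rule foresaw each library. Alternatives covered pseudocount, filter, scaling, trend, moderation, weights, groups fitted, a replicate block, pair distance and each library left out.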

Additional observations from a re-analysis of the deposited data

How the results depend on the processing

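The count of expressed P450 genes, 54, was 57 and 46 under the looser and stricter rules. Leaving out each library in turn gave 4 to 10 called P450 genes for ph+E(z) RNAi against control, where 9 were called with all libraries, 1 to 17 (from 7) for ph+E(z)+CtBP against ph+E(z) RNAi and 2 to 10 (from 7) for ph+E(z)+CtBP RNAi against control. Unequal pairs ranged over 0 to 2 (from 1), 0 to 5 (from 3) and 0 to 4 (from 2). Array weights raised the called genes to 29, 27 and 21 and the unequal pairs to 7, 8 and 7. The counts over all genes and pairs with array weights are not given here, so no excess among P450 genes is read from them. Fits of the 2 groups compared only gave 5, 13 and 2 genes, and 0 unequal pairs in both comparisons against control. For ph+E(z) RNAi against control, unequal pairs were 3 with a pseudocount of 1, 3 with no filter, 2 with quantile normalization, 2 with no trend and 0 with starts at most 10 kb apart. For ph+E(z)+CtBP against ph+E(z) RNAi, a pseudocount of 0.1 left 4 genes. For ph+E(z)+CtBP RNAi against control, unequal pairs were 1 with the 1 FPKM filter and 4 with quantile normalization. The causes were not tested. Cyp4e2, at 0.04 in this last comparison and not called, turned to -0.32 with array weights (adjusted p = 0.0159) and to -0.30 without control replicate 1 (adjusted p = 0.0447; -0.30 to 0.24 over the libraries left out), within a range of adjusted p over its 20 alternatives of 0.0159 to 0.999. Quantile normalization moved the share of higher calls over all genes from 65.7% to 57.7% for ph+E(z) RNAi against control and from 57.4% to 48.4% for all 3 targets against control, while P450 calls with ph+E(z) RNAi were 5 higher and 3 lower. Medians of all genes moved by less than 0.1 under either scaling. The P450 medians under quantile normalization were 0.06, 0.14 and 0.12 in the 3 comparisons, against 0.18, 0.18 and 0.22.

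Same-numbered libraries deviated together with correlations of -0.14 to 0.20, and not every library correlated best with its own number, so the numbers are not taken to pair the libraries. With the number as a replicate block, 7, 5 and 4 P450 genes were called and 1, 0 and 2 pairs were unequal. The calls it lost were Cyp9b1 and Cyp4ac1 in the first comparison, Cyp4p3, Cyp6a23 and Cyp317a1 in the second, and Cyp317a1, Cyp28d1 and Cyp9c1 in the third, and it gained Cyp6a2 in the second. Hnf4 in the second (adjusted p = 0.0633) and nvd in the third (0.0531) were not called with it.

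The number of libraries limits the precision: 3 a group. At levels near 0.5 FPKM, as in Cyp9b1 and Cyp4ac1, the pseudocount sets much of the log2 change.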
